A study of Homo sapiens with 6 samples.

Results

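The 34 genes described here are cytosolic and mitochondrial chaperones and their regulators. They were taken by name from the 19755 genes of a deposited table of protein-coding genes. The rule used no measured values, but the genes were chosen with earlier results of these data known. They code for HSP70, HSP90, J proteins, co-chaperones, small heat shock proteins, the mitochondrial chaperonin, the subunits of TRiC and 2 heat shock factors. All 34 were among the 12068 genes kept by a filter on low values, which asked for an average of 0.5 FPKM or more across the 6 libraries. FPKM counts RNA fragments per kilobase of transcript and for the number mapped, so it allows levels of different genes to be compared, but it does not keep the read depth, which is unknown here.

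Molecular chaperones bind unfolded or partly folded proteins and help them reach or keep their working shape. HSP70 proteins take up exposed stretches of a client in cycles of ATP hydrolysis that J proteins start, and HSP90 proteins finish the folding of kinases, receptors and other signalling proteins. The ring-shaped chaperonins, TRiC in the cytosol and HSP60 with HSP10 in mitochondria, enclose whole proteins. Heat shock factors are transcription factors that bind heat shock elements, repeats of the letters GAA and their complement TTC, and switch on many of these genes when proteins unfold. In endothelial cells, HSP90 is known as a partner of nitric oxide synthase and HSP27 as an actin-associated protein.

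RNA-seq was done on total RNA of cells labelled EA.hy926, a hybrid line made by fusing human umbilical vein endothelial cells with the lung carcinoma line A549. The labels also call them umbilical vein endothelial cells. There were 3 control libraries, with the genotype given as WT, and 3 libraries of cells given lipopolysaccharide (LPS, a bacterial outer membrane glycolipid) at 1000 ng/ml over 12 h, with the genotype given as LPS-induced. All were grown in DMEM with 10% fetal bovine serum and are labelled 12 h. The series compares LPS-exposed with normal cells, and no further allele or agent is named. No label states that replicates are separate cultures. The p-values therefore reflect only how much these libraries vary, and that variation may be technical.

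Protein-coding FPKM added up to between 256047 and 264878 in a library. Of 9 endothelial markers, 8 had a mean of at least 1 FPKM, the exception being EMCN at 0.909. The list summed to 275 to 361 FPKM in controls and 321 to 406 with LPS. EMCN went the other way, with means of 1.42 FPKM in controls and 0.394 with LPS. All 8 fibroblast and smooth muscle markers were above 1 FPKM, with means of 17.2 to 1460 FPKM. Their summed levels, 3911 to 4263 FPKM in controls and 3760 to 4293 with LPS, were far above those of the endothelial list. Whether such levels belong to the labelled cell line was not tested. Of 10 epithelial and A549 markers, 5 reached 1 FPKM, and SFTPC and NKX2-1 were at 0 in every library. Their summed level was 130 to 142 FPKM in controls and 94.8 to 118 with LPS, and the part of this difference in the results below was not tested. Of 6 leukocyte markers CD68 alone reached 1 FPKM, with PTPRC and CD3E among those at 0, and the list summed to 3.70 to 7.61 FPKM in controls and 4.30 to 6.64 with LPS. The summed level of 6 LPS response genes (ICAM1, CCL2, MX1, ISG15, IL1B and CXCL8) was 193 to 219 FPKM in controls and 297 to 473 with LPS. CXCL8, the most abundant of them, overlapped between groups, at 128, 132 and 151 FPKM in controls and 226, 149 and 137 with LPS. Each of the other genes on that list was higher in every LPS library than in every control. In bulk RNA, a different number of cells of a type and a different amount of RNA per cell cannot be told apart.

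The upstream sequences are shown because heat shock elements are the DNA feature that these genes are best known to share. RefSeq start sites (GRCh38.p14) were matched by symbol for 30 of the 34 genes, with no entry for CRYAB, FKBP4, HSF1 and CCT6A. The 250 bases before each start were searched for units GAA and TTC in alternation, each separated from the next by 2 bases (GAANNTTC or TTCNNGAA for a pair, read on both strands). At least a pair of units was found in 35.7% of 42 windows of these genes and in 11.6% of 35116 windows of all genes. A run of 3 or more units was found in 14.3% and 0.441% of them. A match of letters is a description and does not show that a factor binds there.

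The runs of at least 3 units lie before starts of 6 genes and are printed 5′ to 3′ on the strand of the gene, with the run in capitals. In order, they are at chr2:197500062-197500090 (HSPD1, minus strand), chr6:44247770-44247798 and chr6:44247823-44247851 (HSP90AB1, plus strand), chr7:157336865-157336893 (DNAJB6, plus strand), chr11:90223084-90223112 (CHORDC1, minus strand), chr11:123062346-123062374 and chr11:123062171-123062199 (HSPA8, minus strand) and chr14:102087112-102087140 (HSP90AA1, minus strand).
HSPD1: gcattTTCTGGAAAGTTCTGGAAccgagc
HSP90AB1, far: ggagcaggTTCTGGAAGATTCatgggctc
HSP90AB1, near: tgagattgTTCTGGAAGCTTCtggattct
DNAJB6: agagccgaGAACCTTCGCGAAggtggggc
CHORDC1: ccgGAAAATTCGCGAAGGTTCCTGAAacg
HSPA8, far: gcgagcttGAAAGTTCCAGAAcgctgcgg
HSPA8, near: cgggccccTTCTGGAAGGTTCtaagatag
HSP90AA1: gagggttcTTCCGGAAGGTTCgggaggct
The longest run, 5 units, is that of CHORDC1, and HSPD1 has 4. HSP90AB1 and HSPA8 each have a pair of separate runs, so these genes appear on more than 1 line.

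HSPA1A and HSPA1B, neighbours on chromosome 6 that code for the stress-inducible HSP70, each hold 1 pair of units, in capitals below. The windows, cut off where the annotated first exon begins, are chr6:31815293-31815463 for HSPA1A and chr6:31827488-31827734 for HSPA1B, both on the plus strand, and are shown because these genes have near-identical sequences and are described together with their sum.
HSPA1A: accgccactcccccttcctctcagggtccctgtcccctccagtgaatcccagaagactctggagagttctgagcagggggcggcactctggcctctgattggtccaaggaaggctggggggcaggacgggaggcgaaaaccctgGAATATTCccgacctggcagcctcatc
HSPA1B: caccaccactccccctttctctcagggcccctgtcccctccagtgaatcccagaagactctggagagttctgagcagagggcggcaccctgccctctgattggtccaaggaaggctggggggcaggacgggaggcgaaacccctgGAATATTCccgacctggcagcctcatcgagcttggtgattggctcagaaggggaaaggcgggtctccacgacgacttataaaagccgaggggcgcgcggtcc

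At the gene level, none of the 34 chaperone genes differed between LPS and control past the threshold of limma's test, an adjusted p under 0.05 with Benjamini-Hochberg adjustment over all 12068 genes. Their lowest adjusted p was 0.327, that of HSF1. In the same test 7 genes of the table, 0.058%, passed. At an unadjusted p under 0.05 there was 1 chaperone gene, 2.94% of the 34, against 10.4% of all tested genes. The log2 change, LPS minus control on the scale of log2(FPKM + 0.5), had a median of −0.06 over the chaperones and −0.01 over all tested genes. The chaperone median was −0.0016 without control 3, −0.0085 without control 1, −0.103 without control 2 and −0.114 without LPS 3. The change was positive for 12 chaperones, 35.3%, and negative for 22, while it was positive for 47.8% of all tested genes. It lay within 0.25 of 0 for 28 of the 34, or 82.4%, against 72.0% of all tested genes.

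Every LPS library was above every control library for 2 chaperone genes, HSF1 and STIP1, while 8.68% of all tested genes separated in that direction. For 0 chaperones every LPS library was below every control, against 8.73% of all tested genes. Both directions together gave 5.88% of the chaperones. The summed level of the 34 genes was 2031 ± 86.7 FPKM (SD, n = 3) in controls and 1942 ± 107 with LPS. That was 0.707% to 0.802% of all protein-coding FPKM in a library.

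**Figure D1:**
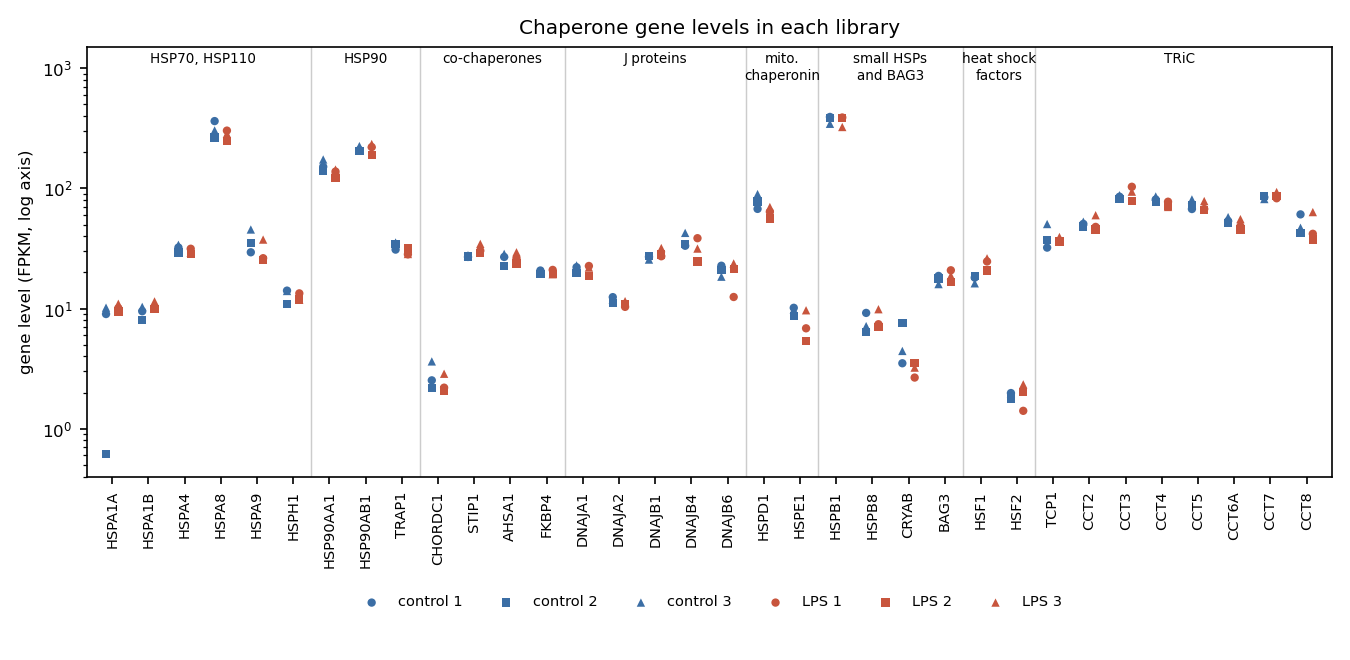
Level of each of the 34 chaperone genes in FPKM on a log axis, in the 3 control libraries (blue) and the 3 LPS libraries (red), grouped by role; each point is 1 library. HSPB1 and HSPA8 are highest, the point of HSPA1A in control 2 at 0.615 FPKM stands far below its other 5, and HSF1 and STIP1 are the genes whose groups do not overlap.

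HSF1, the factor that responds to unfolded protein (identifier ENSG00000185122), was at 18.1, 18.6 and 16.2 FPKM in controls 1 to 3 and at 24.6, 20.7 and 26.2 FPKM in LPS 1 to 3. The groups did not overlap, and the smallest gap lay between control 2 and LPS 2. Its log2 change was 0.42 (SE 0.12, unadjusted p = 0.00906 and adjusted p = 0.327 by limma), so it did not pass over all genes. Leaving out any 1 library kept the log2 change between 0.35 and 0.52. HSF2, which pairs with HSF1 and acts in development, was at 1.91 ± 0.115 FPKM in controls and 1.92 ± 0.472 with LPS (n = 3 each).

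The annotation places DGAT1 on the strand opposite to HSF1, and the counting strand is not given in the sources used here. The separation of HSF1 was not seen in its protein-coding transcripts, whose sum was 9.42, 10.1 and 9.62 FPKM in controls and 17.2, 9.82 and 17.5 with LPS. In LPS 2 that sum was inside the control range, while LPS 1 and LPS 3 were far above it. The other HSF1 transcripts summed to 8.66, 8.47 and 6.59 FPKM in controls and 7.42, 10.9 and 8.66 with LPS, so LPS 2 was the highest library there.

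Within the coding sum, the 2 main HSF1 transcripts, chosen after their values were seen, differed from library to library. HSF1-201, with 495 codons, was at 9.20, 8.14 and 7.64 FPKM in controls and 1.74, 9.38 and 5.90 with LPS. HSF1-204, with 529 codons and other coding exons, was at 0.00489, 1.98 and 1.83 in controls and 15.5, 0.219 and 11.6 with LPS. Both overlapped between groups, with adjusted p = 0.828 each by limma over 20563 protein-coding transcripts.

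Among HSP70 and HSP110 genes, 2 of 6 log2 changes were positive and 4 negative, and the lowest adjusted p was 0.654. HSPA8, the constitutive HSP70 (chromosome 11, 123057489 to 123063230), was at 363, 265 and 303 FPKM in controls and 302, 248 and 285 with LPS. The groups overlapped, with control 1 highest and LPS 2 lowest (log2 change −0.15, SE 0.14, adjusted p = 0.746). It ranked 95 by mean level among the 12068 genes. HSPA9, the mitochondrial HSP70, was at 36.6 ± 8.17 FPKM in controls and 29.7 ± 6.75 with LPS, with control 3 and LPS 3 the highest library of their group. HSPA4, an HSP110-type exchange factor, was at 31.8 ± 2.33 and 29.6 ± 1.63 FPKM, and its relative HSPH1 at 13.0 ± 1.78 and 12.4 ± 0.856 FPKM.

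The inducible HSP70 genes were at low levels for chaperones. HSPA1A (chromosome 6, 31815464 to 31817946) was at 8.997, 0.615 and 10.2 FPKM in controls and 10.1, 9.42 and 11.0 with LPS. Control 2 stood alone below 1 FPKM, and the other 5 libraries lay between 8.997 and 11.0. The log2 change of 1.14 (SE 0.78, adjusted p = 0.656), the largest of the 34, rested on that library and was 0.08 without it. HSPA1B (chromosome 6, 31827738 to 31830254) was at 9.49, 8.03 and 10.3 FPKM in controls and 10.1, 9.86 and 11.5 with LPS (log2 change 0.17, adjusted p = 0.694).

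The coding sequences of HSPA1A and HSPA1B are the same at 1919 of 1923 bases, or 99.8%, so the split of reads between them is uncertain. Their sum was 18.5, 8.64 and 20.5 FPKM in controls and 20.2, 19.3 and 22.4 with LPS. Control 2 was the lowest library in the sum too. The log2 change of the sum was 0.45 (SE 0.29, adjusted p = 0.634).

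Of the HSP90 genes, HSP90AA1, the inducible cytosolic form, was at 151, 140 and 174 FPKM in controls and 138, 122 and 143 with LPS. HSP90AB1, the constitutive form and the most abundant of the 3, was at 208, 204 and 225 FPKM in controls and 220, 190 and 234 with LPS. For each gene the groups overlapped and LPS 2 was the lowest library. The log2 change was −0.20 (adjusted p = 0.580) for HSP90AA1 and 0.01 (adjusted p = 0.977) for HSP90AB1. TRAP1, the mitochondrial HSP90, was at 33.6 ± 2.36 FPKM in controls and 29.4 ± 1.89 with LPS (log2 change −0.19, adjusted p = 0.557).

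Among co-chaperones, STIP1, also called HOP, which links HSP70 to HSP90, was at 26.9, 27.1 and 27.8 FPKM in controls and 30.3, 29.1 and 34.5 with LPS. The groups did not overlap, and the controls lay within 1 FPKM of each other. The log2 change was 0.19 (SE 0.10, unadjusted p = 0.0924, adjusted p = 0.544 by limma), and 0.12 without LPS 3. AHSA1, which speeds the ATPase of HSP90, was at 26.0 ± 2.98 and 26.4 ± 2.84 FPKM in controls and LPS. FKBP4, an HSP90-binding prolyl isomerase, was at 19.9 ± 0.730 and 19.9 ± 0.952 FPKM, the narrowest spread of the 34 genes over all 6 libraries (coefficient of variation 3.82%). CHORDC1, an HSP90-binding protein with cysteine- and histidine-rich domains, was at 2.78 ± 0.755 and 2.38 ± 0.424 FPKM.

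J proteins, which deliver clients to HSP70, had 1 positive and 4 negative log2 changes. DNAJB4, the most abundant, was at 33.3, 34.6 and 42.6 FPKM in controls and 38.5, 24.7 and 31.5 with LPS. LPS 1 lay inside the control range and the other 2 LPS libraries below it (log2 change −0.23, adjusted p = 0.694). The log2 change was −0.07 without LPS 2, −0.12 without control 3 and −0.38 without LPS 1. DNAJB1, the partner of inducible HSP70, was at 26.6 ± 0.998 and 29.1 ± 2.45 FPKM, DNAJA1 at 21.5 ± 1.64 and 21.1 ± 2.05, and DNAJA2 at 11.8 ± 0.666 and 10.9 ± 0.599. DNAJB6, a suppressor of protein aggregation, was at 22.7, 21.0 and 18.4 FPKM in controls and 12.5, 21.3 and 23.7 with LPS. LPS 1 alone set the sign of its log2 change, which was −0.15 with that library and 0.12 without it.

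The small heat shock proteins hold unfolded proteins without ATP. HSPB1, or HSP27, was the most abundant of the 34 genes, at 393, 385 and 344 FPKM in controls and 389, 387 and 324 with LPS, and ranked 73 among all tested genes. Control 3 and LPS 3 were the lowest libraries of their groups (log2 change −0.03, adjusted p = 0.941). CRYAB, or αB-crystallin, was at 3.50, 7.62 and 4.44 FPKM in controls and 2.66, 3.51 and 3.22 with LPS. Control 2 was far above the rest, and LPS 2 just exceeded control 1. Its log2 change of −0.59 (SE 0.26, unadjusted p = 0.0545, adjusted p = 0.492 by limma) was −0.30 without control 2. HSPB8 was at 7.56 ± 1.47 and 8.11 ± 1.53 FPKM, and its partner BAG3, which joins small heat shock proteins to HSP70 and selective autophagy, at 17.5 ± 1.38 and 18.7 ± 2.13.

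TRiC, which folds actin and tubulin, had 8 subunit genes with means of 38.6 to 88.2 FPKM. Summed, they were at 518 ± 24.2 FPKM in controls and 508 ± 44.2 with LPS, with 3 positive and 5 negative log2 changes between −0.16 and 0.10. CCT3, the most abundant, was at 85.1, 81.3 and 87.7 FPKM in controls and 103, 78.0 and 93.8 with LPS. LPS 1 and LPS 3 were above all controls and LPS 2 below them (adjusted p = 0.796). CCT4 had the lowest p of the subunits, at 81.1 ± 4.30 and 72.7 ± 4.04 FPKM (log2 change −0.16, adjusted p = 0.595). The means in controls and LPS were 83.9 and 87.3 FPKM for CCT7, 73.5 and 70.6 for CCT5, and 54.1 and 49.7 for CCT6A. For CCT2 they were 50.5 and 51.0, for CCT8 49.97 and 47.6, and for TCP1 39.9 and 37.2.

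**Figure D2:**
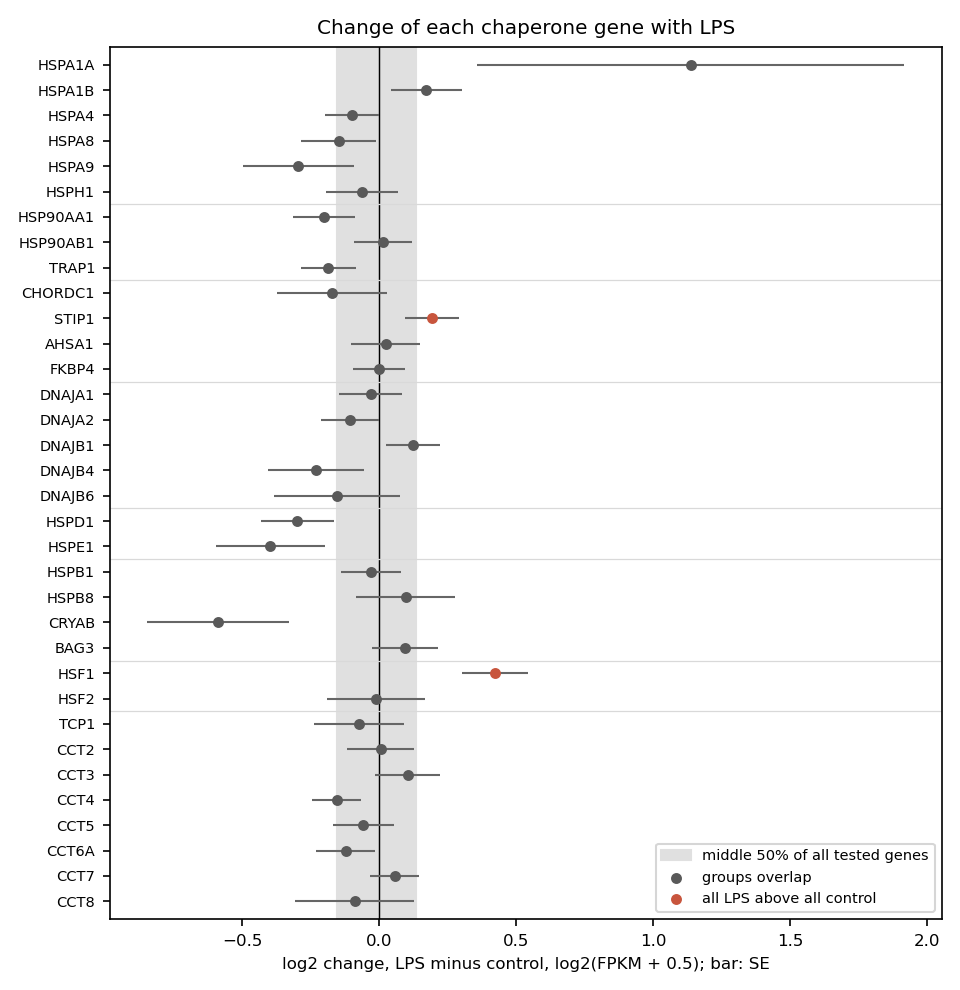
Log2 change (LPS minus control, log2(FPKM + 0.5)) of each of the 34 genes with its standard error from limma, ordered by role; the grey band is the middle 50% of all 12068 tested genes. HSF1 (0.42) and STIP1 (0.19), in red, are the genes whose groups do not overlap; HSPA1A has the widest error bar (SE 0.78) and CRYAB lies lowest (−0.59).

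The chaperones varied less between libraries than the typical tested gene, as a description with no test. Their median coefficient of variation over the 6 libraries was 10.3%, against 16.4% for all tested genes. For the 27 chaperones with a mean of at least 10 FPKM it was 9.79%, against 12.2% for the 4279 genes above the same minimum. These sets still differ in level, with median levels of 34.2 FPKM for the chaperones and 20.3 for those genes. The part of level in this difference was not tested. LPS 2 was the lowest library for 15 chaperones, 44.1%, and for 21.9% of all tested genes, and the highest for 0 chaperones and 10.9% of all tested genes. LPS 3 was the highest for 13 chaperones, 38.2%, and control 3 for 12, 35.3%, and the same libraries were the highest for 25.7% and 24.6% of all tested genes. Median-of-ratios size factors of the gene table were 0.972 for LPS 2, 1.045 for LPS 3 and 1.039 for control 3, and their part in this order was not tested.

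Of 80 further genes of the chaperone network on a list set with the 34 (other HSP70, small heat shock and J proteins, BAG proteins, HSP90 partners, prefoldin and mitochondrial proteases), 75 entries were tested. HSPA14 gave 2 of them, under separate identifiers (log2 changes −0.08 and 0.03). Of the 75 entries, 29 had positive and 46 negative log2 changes, with a median of −0.07. Past the threshold there were 0 in either direction (lowest adjusted p = 0.439 by limma). At an unadjusted p under 0.05 there were 2 higher and 1 lower, where all tested genes gave 10.4%. The groups did not overlap for 3 higher and 5 lower genes, against 8.68% and 8.73% of all tested genes. BAG1, an HSP70 exchange factor, was at 6.22, 8.43 and 8.29 FPKM in controls and 8.50, 11.5 and 13.0 with LPS (log2 change 0.49, adjusted p = 0.439). HSPA12A, a distant HSP70 relative, was at 2.75, 2.39 and 2.56 and at 3.88, 3.07 and 3.41 FPKM (log2 change 0.36, adjusted p = 0.439). Neither overlapped between groups. CACYBP, which links a ubiquitin ligase to its targets, was at 19.6, 18.1 and 20.1 and at 12.2, 9.51 and 18.5 FPKM (log2 change −0.56, adjusted p = 0.447), with LPS 3 inside the control range. HSPA6, a strictly inducible HSP70, was under the filter, at 0.0785 to 0.240 FPKM in controls and 0.185 to 0.376 with LPS.

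The mitochondrial chaperonin had the lowest LPS sum relative to control of the 8 roles, 87.8 ± 11.0 against 70.6 ± 9.01 FPKM. HSPD1 codes for HSP60 (ENSG00000144381, chromosome 2, 197486584 to 197516737, minus strand). It was at 67.4, 77.7 and 89.6 FPKM in controls and 63.8, 56.2 and 69.9 with LPS. LPS 3 was above control 1, so the groups overlapped (log2 change −0.30, SE 0.13, unadjusted p = 0.0573, adjusted p = 0.494 by limma). HSPE1, coding for its lid HSP10, was at 10.1, 8.66 and 9.81 FPKM in controls and 6.84, 5.39 and 9.67 with LPS (log2 change −0.40, SE 0.20, adjusted p = 0.530). LPS 3 was inside the control range, and without it the log2 change was −0.61, while without LPS 2 it was −0.21.

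HSPD1 and HSPE1 lie on opposite strands and overlap in the deposited annotation, and the counting strand is not given in the sources used here. Reads of HSPE1 are also uncertain for another reason. It has 26 annotated pseudogenes, whose summed mean FPKM was 22.5% of that of HSPE1. For HSPD1, 17 pseudogenes summed to 3.57%. Pseudogenes were matched by name, as the symbol of a chaperone gene followed by P and a number. Copies named otherwise were not counted, so the lists may be incomplete. Of 85 pseudogenes found this way for 14 of the 34 genes, 3 had a mean of at least 0.5 FPKM. The readthrough gene HSPE1-MOB4 was at 0.729 to 2.67 FPKM. In GENCODE 29, 16 of the 34 genes overlap a gene on the opposite strand, among them CRYAB (HSPB2), TRAP1 (DNASE1) and HSP90AA1 (WDR20).

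The one chaperone feature past the threshold was a transcript of HSPD1. HSPD1-202 was at 0.0287, 0.00500 and 0.0366 FPKM in controls and 47.1, 19.1 and 53.5 with LPS. All controls were near 0, and LPS 2 was the lowest of the LPS libraries (log2 change 6.14, SE 0.41, adjusted p = 0.0135 by limma over 20563 protein-coding transcripts). Of the whole table, 26 transcripts or 0.126% passed. The call did not hold without control 1 (adjusted p = 0.0618) or without control 3 (adjusted p = 0.0528), and the log2 change was then 6.15 and 6.16.

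HSPD1-201 had the opposite pattern. It was at 50.3, 52.0 and 55.6 FPKM in controls and 0.00436, 29.5 and 0.00751 with LPS. All LPS libraries were below the controls, LPS 1 and LPS 3 near 0, while LPS 2 held both transcripts (log2 change −4.75, SE 1.66, adjusted p = 0.730 by limma). Without LPS 2 the log2 change was −6.71 and the adjusted p 0.00188. The sum of both transcripts was 52.7 ± 2.75 FPKM in controls and 49.7 ± 3.34 with LPS, and overlapped between groups.

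The 2 transcripts share the same coding exons, 573 codons, with the start codon in exon 2, and differ in exon 1. HSPD1-201 starts at position 197500274 and HSPD1-202 at 197499840 in the deposited annotation, 434 bases downstream. GENCODE 29 gives 197500047 for HSPD1-202, while 197499840 is also a RefSeq start. HSPE1-201 starts on the other strand, in the deposited annotation 105 bases upstream of HSPD1-201, at 197500379. GENCODE 29 gives it a start at 197499994, which lies downstream of the HSPD1-201 start, so that their first exons overlap there. The run of 4 heat shock units printed above lies between the starts of HSPD1-201 and HSPD1-202, 245 to 228 bases before the latter.

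The transcript HSPD1-211 has the end of its first exon in common with HSPD1-202 and is annotated as a retained intron. It was at 6.84, 9.04 and 10.9 FPKM in controls and 1.52, 1.58 and 2.59 with LPS, with no overlap. Its log2 change was −1.98 (SE 0.27, adjusted p = 0.157 by limma over 35727 transcripts of all kinds, a table chosen after seeing the data). All HSPD1 transcripts outside the coding set summed to 11.2, 11.9 and 17.7 FPKM in controls and 3.46, 4.14 and 5.45 with LPS. Its coding transcripts summed to 64.7 ± 7.86 and 59.0 ± 6.32 FPKM, which overlapped. HSPD1-202 and HSPD1-211, which use that first exon, summed to 8.95 ± 2.04 and 41.8 ± 18.7 FPKM.

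**Figure D3:**
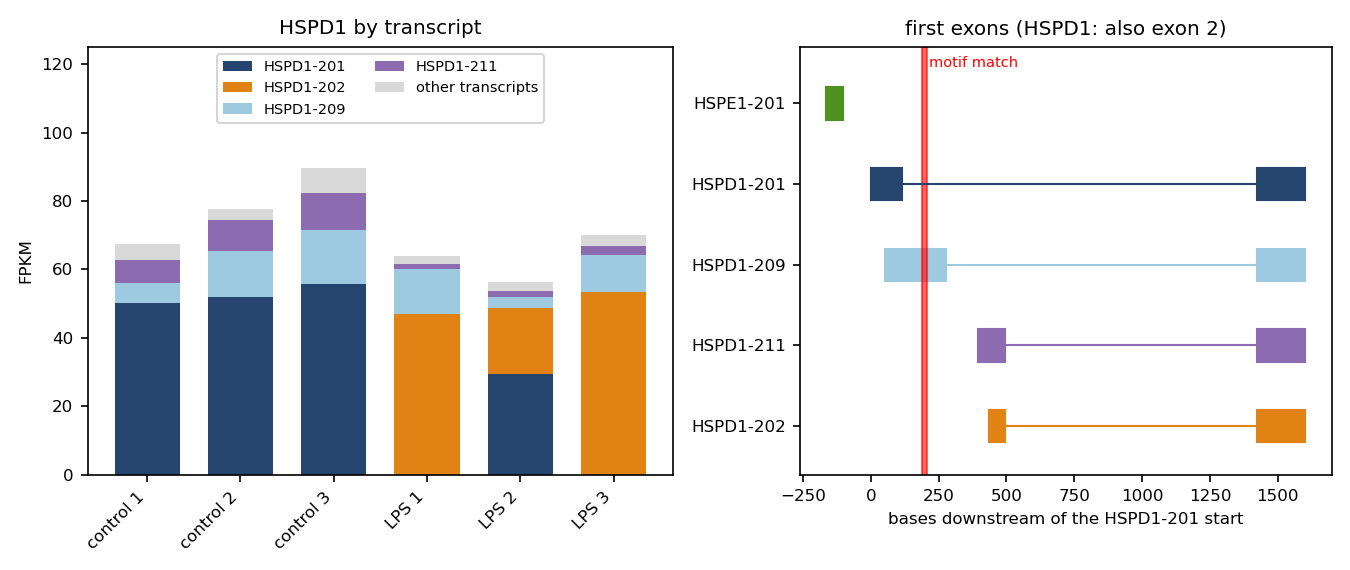
Left, HSPD1 level in FPKM in each library, stacked by transcript; right, first exons of HSPE1-201 and 4 HSPD1 transcripts, with exon 2 of HSPD1, by distance in bases from the HSPD1-201 start with starts as deposited, and the heat shock unit run in red. HSPD1-201 is the largest part of the controls and HSPD1-202 of LPS 1 and LPS 3, with other transcripts making up the rest. LPS 2 holds both, and the heights of the gene differ far less.

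Across the 34 genes, 72 protein-coding transcripts were tested, and HSPD1-202 was the only one past the threshold. At an unadjusted p under 0.05 there were 4 (HSPD1-202, HSPD1-201, CCT2-202 and HSPA8-208), while 6.44% of all protein-coding transcripts were under it. In 7 of the 72, or 9.72%, the groups did not overlap, against 13.8% of all protein-coding transcripts. In the table of all transcripts, 132 were tested and the same transcript passed, against 35 of 35727 transcripts or 0.098%. There 13, or 9.85%, did not overlap, against 12.4% of all.

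Exchanges between transcripts of 1 gene also occurred inside a group. CCT2-202, in which translation starts in exon 3 (488 codons), was at 4.796, 41.7 and 42.1 FPKM in controls and 0.0481, 0.0553 and 0.0501 with LPS. CCT2-201, chosen after its values were seen, has its start codon in exon 1 (535 codons) and was at 43.2, 0.485 and 0.653 in controls and 44.9, 42.7 and 55.3 with LPS. In control 1, as in the LPS libraries, CCT2-201 was the higher of the pair, and in controls 2 and 3 CCT2-202 was. The log2 change was −5.27 (SE 0.86, adjusted p = 0.244) for CCT2-202 and 3.70 (SE 1.52, adjusted p = 0.741) for CCT2-201 by limma. Without control 1 they were −6.27 and 5.49, each with an adjusted p of 0.00768. The sum of both was 48.0, 42.2 and 42.8 FPKM in controls and 44.9, 42.7 and 55.4 with LPS, which overlapped.

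HSPA8-212 and HSPA8-224 were also chosen after their values were seen. HSPA8-212 was at 153 FPKM in control 1 and listed at 0 in the other 5 libraries. In control 1 HSPA8-224 was at 3.65 FPKM, while it was at 88.5 and 135 in controls 2 and 3 and at 91.9, 122 and 104 with LPS. HSPA8-211, annotated as a retained intron, was at 18.5, 9.93 and 10.5 FPKM in controls and 7.97, 2.80 and 4.29 with LPS (log2 change −1.34, adjusted p = 0.7996). TRAP1-211, a noncoding processed transcript, was at 1.37, 4.58 and 1.60 and at 1.14, 0 and 0.591 FPKM. An assembled transcript of DNAJB4 with no Ensembl name was at 9.21, 16.2 and 0.468 FPKM in controls and 0.241, 0 and 0 with LPS. None of the last 3 passed, with adjusted p of 0.7996 to 0.819 by limma.

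Of 44 protein-coding transcripts of the chaperones that reached 10 FPKM in some library, 17 (38.6%, in 12 genes) were under 10% of their own maximum in another. Over all protein-coding transcripts this was 1246 of 4981, or 25.015%. Over genes it was 24 of 5092, or 0.471%, and among 30 chaperone genes it was 1, HSPA1A. What part the assignment of reads between transcripts has in the HSPD1 and CCT2 values was not tested.

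**Figure D4:**
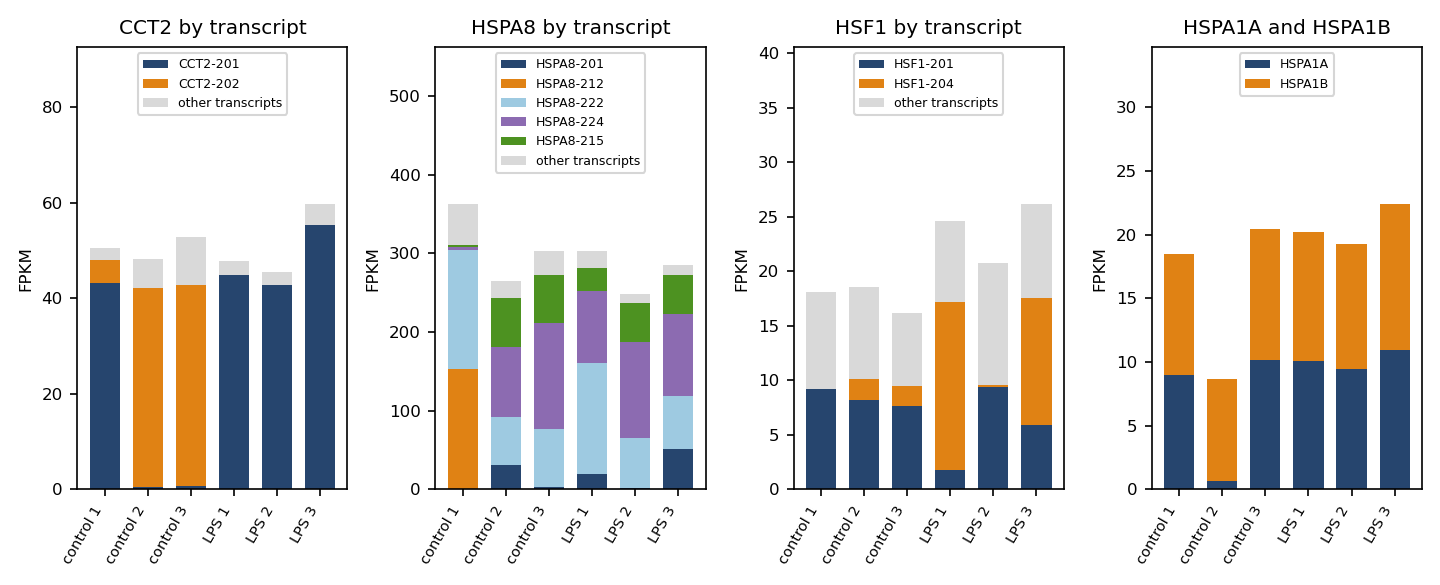
Level in FPKM in each library, stacked by transcript for CCT2, HSPA8 and HSF1 and by gene for HSPA1A and HSPA1B. CCT2 in control 1 is mostly the main transcript of the LPS libraries, and HSPA8-212 appears in control 1 alone. HSF1-204 is large in LPS 1 and LPS 3, and HSPA1A is nearly missing in control 2.

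At the gene level, the 6 genes with the upstream runs printed above had log2 changes from −0.30 (HSPD1) to 0.01 (HSP90AB1), with a median of −0.16 and 1 positive. The 15 genes with a window and no pair of units had −0.40 to 0.19, with a median of −0.06 and 5 positive. The −0.40 is that of HSPE1, which starts on the opposite strand next to HSPD1. Its searched window begins at position 197500129 and so leaves out the run printed for HSPD1 at chr2:197500062-197500090, which lies farther upstream of HSPE1. Its place in this set therefore depends on the window of 250 bases. Genes with a pair but no longer run are in neither set, and had −0.23 (DNAJB4) to 1.14 (HSPA1A). Among them HSPA1A, HSPA1B, DNAJB1, HSPB8 and CCT2 were positive, and DNAJA1, HSPB1, TCP1 and DNAJB4 negative. No test was made of differences between these sets.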

How the data were processed

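Values are FPKM as calculated and deposited by the authors. The submitters' processing notes list HISAT2 and StringTie, with no version, and a mouse build, mm9, while the deposited tables carry human identifiers at GRCh38 coordinates. How strand was handled in counting is not given in the sources used here. Groups come from the sample titles, since the treatment field is the same for all.

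Of the deposited FPKM tables, 4 were used (protein-coding genes, their transcripts, all genes, all transcripts). Features averaging 0.5 FPKM or more were tested with limma 3.58.1 (R 4.3.3) on log2(FPKM + 0.5), a scale that understates changes of low features. Group was the one term, eBayes used a trend, and two-sided p-values were adjusted by Benjamini-Hochberg over each whole table. The procedure was run on simulated data with independent normal noise for each feature. Such data hold no exchanges between transcripts of 1 gene, so the run does not bear on the transcript calls. Transcript starts and strands follow the deposited tables and GENCODE 29, and upstream sequences are RefSeq's (GRCh38.p14).

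The members and lists were chosen with earlier results of these data known. The value of 1 listed marker is not reported here. Values in every library are given for members at an unadjusted p under 0.05, members without overlap and the most abundant of each role, and for others chosen after values were seen. Transcripts are named if past the threshold, or at an unadjusted p under 0.05 without overlap at a mean of at least 1 FPKM. Alternatives were pseudocounts of 0.1 and 1, no filter, a minimum of 1 FPKM, median-of-ratios rescaling, quantile normalization, a replicate block, library weights, robust eBayes, leaving out each library, the table of all genes, HSPA1A and HSPA1B added, and, chosen after seeing the data, the table of all transcripts.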

Additional observations from a re-analysis of the deposited data

How the results depend on the processing

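By limma, 0 of the 34 chaperone genes and 0 of the further network genes passed under every alternative run, with a lowest adjusted p of 0.283 for the chaperones. FPKM keeps no depth, so no counting error could be given. The count of all genes past the threshold, 7, was 0 without a filter (1563 at an unadjusted p under 0.05) and 0 to 8 on leaving out 1 library, with 0 without control 2 (1046 unadjusted) or LPS 2 (1213 unadjusted), 2 without LPS 3 and 4 without control 1. Protein-coding transcripts past it, 26, were 15 without a filter and 28 to 53 on leaving out 1 library. Chaperone transcripts past it, 1, were 0 to 2, with 0 without control 3 and 2 without control 1 or LPS 2. Chaperone genes at an unadjusted p under 0.05, 1, were 2 under median-of-ratios rescaling, quantile normalization and library weights, and 1 to 4 on leaving out 1 library, with 3 without control 1 and 4 without LPS 3. Over all tested genes that count was 1254, or 10.4%, and 1332, 1349 and 1341 under those settings in the same order. It was 915 to 1213 on leaving out 1 library, with 1196 without control 1 and 1211 without LPS 3.

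With a replicate block, 0 genes (1451 at an unadjusted p under 0.05), 0 transcripts (1171) and 0 chaperone transcripts passed, 4 chaperone genes had an unadjusted p under 0.05, and the adjusted p of HSPD1-202 was 0.306. The numbers do not pair the libraries in the labels, and same-numbered libraries had correlations of deviations of 0.02, 0.11 and 0.06. Every library correlated best with its own number except control 1.

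Of 546 values for the chaperone genes under alternatives, 32 had the opposite sign, in 13 genes, none past the threshold. FKBP4 was 0.00595, 0.00324 and 0.00614 under median-of-ratios rescaling, quantile normalization and library weights, HSF2 0.00279 under quantile normalization, and CCT2 −0.0138 and −0.0317 under quantile normalization and library weights. On leaving out 1 library the log2 changes were −0.0513 to 0.0974 for HSP90AB1, −0.0896 to 0.0552 for HSPB1, −0.0450 to 0.237 for HSPB8, −0.0933 to 0.0485 for DNAJA1, −0.330 to 0.121 for DNAJB6, −0.306 to 0.00495 for CHORDC1, −0.0695 to 0.0974 for AHSA1 and −0.0400 to 0.0280 for FKBP4. They were −0.137 to 0.150 for HSF2, −0.215 to 0.107 for TCP1, −0.114 to 0.0815 for CCT2, −0.136 to 0.0121 for CCT5 and −0.314 to 0.0607 for CCT8. The cause of these changes of sign was not tested.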
